A study of Mus musculus with 32 samples.

Results

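The genes followed here are tied to eosinophils in the mouse, and they were measured in 32 mesothelioma tumors. They are the ribonucleases Ear1, Ear2, Ear6 and Ear10, the granule proteins Epx and Prg2, the surface receptors Siglecf and Ccr3, and the eotaxins Ccl11 and Ccl24. They were 10 of the 39676 genes with a row in the count table, and all 10 had a row. The set was chosen by the fall of Ear2 in pleural tumors of both models, so the difference of Ear2 between tumor sites is given as a description with no test. The other Ear rows can share reads with Ear2 and were treated the same way.

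AB1 cells were grown in BALB/c mice and AE17 cells in C57BL/6 mice. Both are murine mesothelioma lines, inoculated at 500000 cells for AB1 and 1000000 cells for AE17 into untreated female mice of 8 to 10 weeks. Each line was placed either in the pleural cavity (intrapleural, IPL) or under the skin of the flank (subcutaneous, SC), and tumors were harvested at day 10 together with surrounding tissue. By the study's methods the lungs and other surrounding tissue were then cut away before the RNA was stored. Each of the 4 combinations of line and site had 8 mice, and each library was polyA RNA of a whole tumor, so fewer cells of a type and less RNA per cell cannot be told apart. Cell line, mouse strain and number of cells go together, and each model is 1 cell line. Libraries held 15432258 to 20649645 counts. The sequencing lane in the column names was not balanced: all 8 AB1 IPL libraries were in lane 3 and all 8 AE17 SC libraries in lane 1, against 2 of 8 AB1 SC libraries in lane 3 and 3 of 8 AE17 IPL libraries in lane 1. Of the 4 listed mesothelial genes, Wt1, Upk3b and Lrrn4 had rows. Their summed level was low for tumors labelled as mesothelioma, with group medians of 0.948 CPM (counts scaled to a library of 1000000) in AB1 IPL, 1.00 in AB1 SC, 5.76 in AE17 IPL and 0.148 in AE17 SC.

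Eosinophils are granulocytes made in bone marrow under interleukin-5 and drawn into tissue by eotaxins, which act on the receptor CCR3. Their granules hold major basic protein (Prg2), eosinophil peroxidase (Epx) and ribonucleases of the Ear family, and the granule protein genes are transcribed mainly while the cells mature in marrow. Several Ear genes are also expressed by mouse macrophages, and Siglecf is carried by alveolar macrophages as well as eosinophils, so none of these rows alone marks a cell type.

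The Ear genes lie on chromosome 14 (GRCm38, GENCODE M21), Ear1 at chr14:43818765-43875517 and Ear10 at chr14:43922720-43923559 on the minus strand, Ear2 at chr14:44102654-44103534 and Ear6 at chr14:51853699-51854643 on the plus strand. Levels of Rnase2a, Rnase2b and Ear14 of the same family were not analysed here. The coding parts are nearly the same: Ear2 and Ear10 differed at 14 of 468 aligned bases, Ear1 and Ear2 at 19 of 465, and Ear2 and Ear6 at 54 of 465. The first 80 coding bases are shown because 50-base reads from them cannot always be given to 1 gene. Sequences are GRCm38 transcripts of GENCODE M21, 5′ to 3′ in gene orientation, and capitals mark bases that differ from Ear2.
Ear2, chr14:44102887-44102966, plus strand: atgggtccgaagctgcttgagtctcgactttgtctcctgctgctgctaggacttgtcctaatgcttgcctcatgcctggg
Ear1, chr14:43819330-43819409, minus strand: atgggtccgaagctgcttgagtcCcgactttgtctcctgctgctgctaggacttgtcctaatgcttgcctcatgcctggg
Ear10, chr14:43923289-43923368, minus strand: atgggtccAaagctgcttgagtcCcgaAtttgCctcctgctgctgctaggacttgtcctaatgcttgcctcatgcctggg
Ear6, chr14:51853998-51854077, plus strand: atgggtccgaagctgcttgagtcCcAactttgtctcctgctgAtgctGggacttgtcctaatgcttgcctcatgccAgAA
Ear1 held 1 difference from Ear2 there, Ear10 held 4 and Ear6 held 7. Coding bases 91 to 170 are shown because they are the ungapped stretch of 80 bases in which Ear1 and Ear2 differed most.
Ear2, chr14:44102977-44103056, plus strand: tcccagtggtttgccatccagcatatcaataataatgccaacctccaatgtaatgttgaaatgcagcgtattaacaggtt
Ear1, chr14:43819240-43819319, minus strand: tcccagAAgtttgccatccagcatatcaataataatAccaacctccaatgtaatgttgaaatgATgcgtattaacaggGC
Ear10, chr14:43923199-43923278, minus strand: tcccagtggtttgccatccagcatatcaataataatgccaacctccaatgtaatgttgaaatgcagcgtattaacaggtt
Ear6, chr14:51854088-51854167, plus strand: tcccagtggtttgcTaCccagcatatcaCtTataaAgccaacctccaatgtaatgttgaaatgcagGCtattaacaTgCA
Ear1 differed from Ear2 at 7 of these 80 bases and Ear6 at 10, whereas Ear10 was identical to Ear2.

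Of all 50-base windows in its annotated transcripts, Ear1 shared 57.4% exactly with another gene, Ear2 shared 41.5% and Ear10 shared 39.9%. Those other genes were family members and the pseudogenes Ear-ps2 and Ear-ps9. Ear6 shared 0.954%. With up to 2 mismatches allowed, 68.4% of Ear2 windows could be placed on Ear1 and 49.6% on Ear10, against 11.5% on Rnase2a and 4.03% on Ear6. Of the Ear6 windows 12% could be placed on Ear14 in this way. How the authors' counting treated a read with several placements is not given in the sources used here, so the split of reads between Ear1, Ear2 and Ear10 is uncertain, and less so that of Ear6.

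The starts of the 4 genes are also alike, and the 60 bases before each RefSeq start (GRCm38.p6) are shown to compare the starts of the 4 family members. Capitals mark TATAT.
Ear2, chr14:44102594-44102653, plus strand: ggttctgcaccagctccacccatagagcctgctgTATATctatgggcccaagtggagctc
Ear1, chr14:43819640-43819699, minus strand: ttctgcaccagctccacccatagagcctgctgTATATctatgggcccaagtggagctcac
Ear10, chr14:43923597-43923656, minus strand: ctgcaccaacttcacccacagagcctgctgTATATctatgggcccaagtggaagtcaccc
Ear6, chr14:51853708-51853767, plus strand: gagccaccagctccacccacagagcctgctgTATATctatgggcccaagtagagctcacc
TATAT began 26 to 30 bases before the start in all 4, and TATAT on either strand was in 19.7% of all 32851 RefSeq promoter windows of 300 bases. The match is a description of letters.

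Ear2 encodes a secreted ribonuclease of the eosinophil granule and was the highest of the 4 Ear rows in each group by median. CPM were scaled by the trimmed mean of M-values (TMM). In AB1 tumors Ear2 ran from 1.37 to 10.8 CPM with a median of 2.71 in IPL mice, and from 5.98 to 89.8 CPM with a median of 15.5 in SC mice. In AE17 tumors it ran from 2.52 to 4.96 CPM with a median of 3.72 in IPL mice, and from 4.14 to 62.3 CPM with a median of 17.4 in SC mice. The groups overlapped in both models, with 5 of 8 AB1 IPL mice and 5 of 8 AE17 IPL mice below every SC mouse of their model, and all 8 IPL mice of each model were below the SC median. The log2 difference, IPL minus SC, was -2.38 in AB1 and -2.40 in AE17, which is what the choice of the genes used. The spread among SC mice rested largely on mouse 6 of each model, with 1540 counts in AB1 and 1062 in AE17. Without both mice, which were left out after their values had been seen, the Ear2 log2 difference was -1.56 in AB1 and -1.91 in AE17.

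Ear10, the row closest to Ear2 in its coding sequence, followed it. Its median was 1.03 CPM in AB1 IPL against 4.10 CPM in AB1 SC, and 1.09 CPM in AE17 IPL against 5.03 CPM in AE17 SC. The log2 differences were -2.04 and -2.56, and without SC mouse 6 they were -1.22 and -2.10. In AE17 Ear1 did so too, at 0.684 to 1.35 CPM in IPL mice and 0.853 to 11.6 CPM in SC mice, a log2 difference of -2.21. In AB1 the Ear1 groups covered each other, at 0.234 to 10.8 CPM in IPL mice and 0.930 to 17.7 CPM in SC mice. The Ear1 medians there were 1.66 and 2.53 CPM, and the contrast with AE17 was not tested. The Ear1 log2 difference in AB1 was -0.28, and it turned to 0.61 without SC mouse 6 of both models and to 0.17 with lane as a covariate. Without the 4 AB1 IPL mice with over 50 counts of Mpo, also an alternative chosen after seeing the data, it was -1.35. Ear6 had a median of 0.436 CPM in AB1 IPL and 0.328 CPM in AB1 SC, and of 0.117 CPM in AE17 IPL and 0.597 CPM in AE17 SC. With the 4 Ear rows summed to 1 row, the log2 difference was -1.61 in AB1 and -2.41 in AE17. These too are descriptions.

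**Figure D1:**
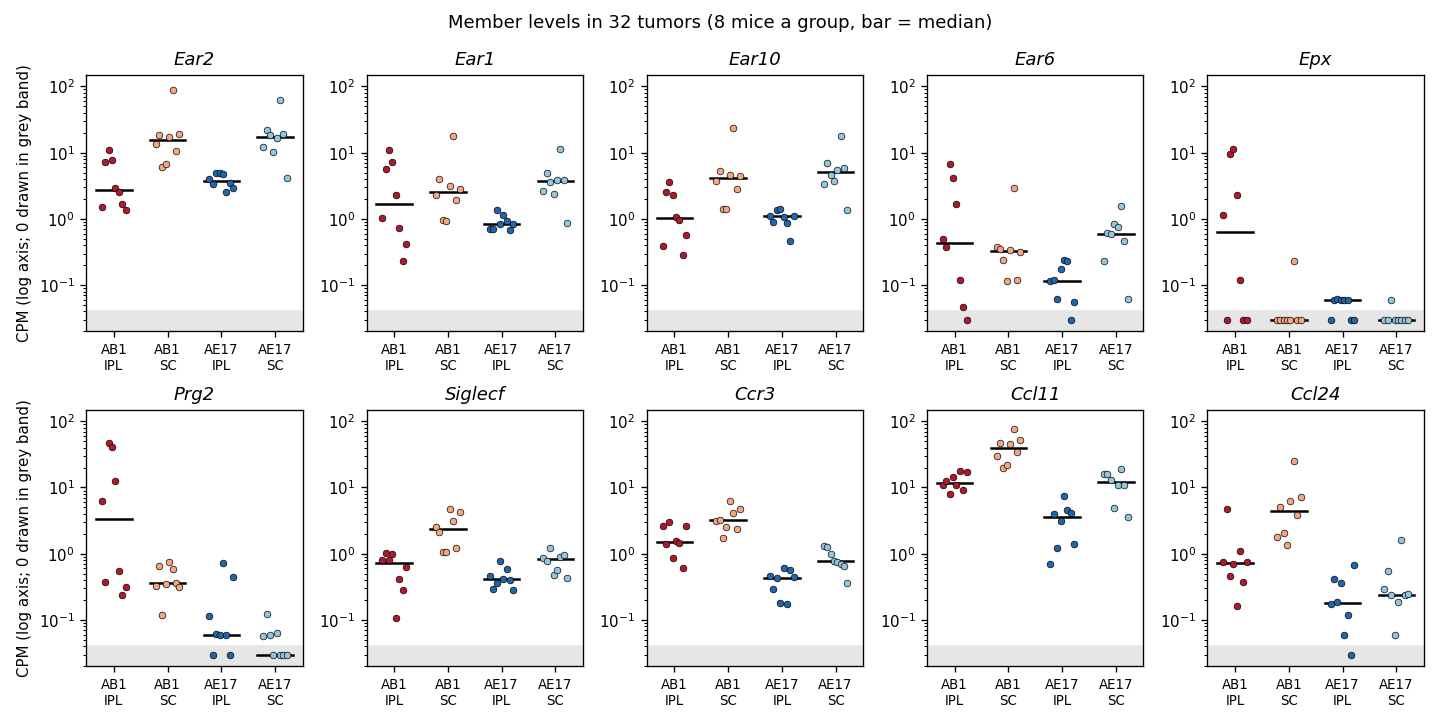
Level of each of the 10 genes in CPM on a log axis, 1 point for each of 8 mice in the 4 groups, with the group median as a bar and values of 0 drawn in the grey band. Ear2 and Ear10 were lower in IPL than in SC mice by median in both models, and Epx and Prg2 were high in 4 of the 8 AB1 IPL mice.

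The make-up of the Ear reads differed within the AB1 IPL group. In all 24 mice of the other 3 groups, Ear1 had 0.137 to 0.372 reads for each Ear2 read. In AB1 IPL mice 1 to 5 this ratio was 0.677, 0.782, 1.00, 0.930 and 0.792, and in mice 6 to 8 it was 0.286, 0.139 and 0.308. The ratio of Ear10 to Ear2 showed no such step, at 0.167 to 0.423 in AB1 IPL and 0.205 to 0.285 in AB1 SC. Ear6 took 14.3% to 21.2% of the Ear reads in AB1 IPL mice 1, 3, 4 and 5. In the other 28 mice it took 0% to 5.13%. Since a ratio of rows that share reads depends on how those reads were assigned, the ratio between Ear1 and Ear2 is a property of the deposited counts.

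**Figure D2:**
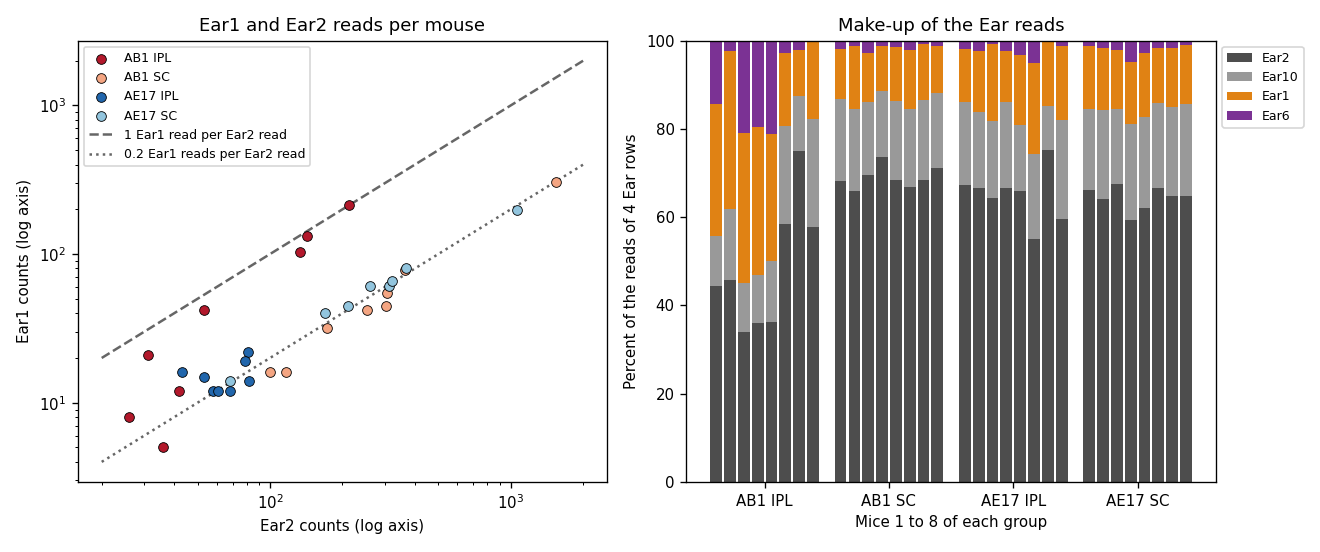
Left, Ear1 counts against Ear2 counts on log axes, 1 point for each of 32 mice, with dashed and dotted lines at 1 and 0.2 Ear1 reads per Ear2 read. Right, stacked bars of the percent of reads from the 4 Ear rows in mice 1 to 8 of each group, in which 5 AB1 IPL mice hold more Ear1 and 4 of those also more Ear6.

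Prg2 and Epx, the major basic protein and the peroxidase of the eosinophil granule, did not follow Ear2. Prg2 had 125, 7, 914, 749, 234, 9, 5 and 6 counts in AB1 IPL mice 1 to 8, against 2 to 13 counts in AB1 SC mice, 0 to 12 in AE17 IPL mice and 0 to 2 in AE17 SC mice. Epx had 23, 0, 189, 210, 42, 2, 0 and 0 counts in AB1 IPL mice 1 to 8. Mice 1, 3, 4 and 5 were thus high for both genes, and the other 4 AB1 IPL mice lay at or near the level of the other groups. Epx was at 0 in 7 of 8 AB1 SC mice and in 7 of 8 AE17 SC mice, where a count of 0 allows up to 3 counts, or 0.156 to 0.194 CPM. Its only SC counts were 4 in AB1 SC mouse 6 and 1 in AE17 SC mouse 3. Those mice had 1540 and 311 counts of Ear2, where the AE17 SC median was 286. AE17 SC mouse 6, with 1062 counts of Ear2, had 0 of Epx. Floors of this kind cover counting error only.

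Ear6 was highest in the same 4 AB1 IPL mice, with 10, 7, 131, 77, 31, 2, 1 and 0 counts in mice 1 to 8. Prg3, a homologue of Prg2 from the list of other eosinophil genes, had 1, 2, 42, 33, 8, 0, 0 and 0 counts in the same order, and it was at 0 in all 8 AB1 SC mice. Genes of bone marrow granulocyte precursors followed this in part. Mpo, the neutrophil peroxidase, had 104, 7, 624, 494, 156, 3, 1 and 1 counts. Ms4a3 had 4, 0, 47, 36, 3, 0, 0 and 0, which is low in mice 1 and 5 as well. Prtn3, a neutrophil protease, had 45, 69, 184, 160, 39, 3, 8 and 5, so that mouse 2 was above mice 1 and 5. That list was added after the values had been seen. It held 5 genes, 3 of them with rows, and their summed level was 0.317 to 43.5 CPM in AB1 IPL, 0.121 to 0.418 CPM in AB1 SC, 0.523 to 2.06 CPM in AE17 IPL and 0.356 to 0.766 CPM in AE17 SC. The summed level of 5 erythroid genes, added in the same way, was 48.3 to 2920 CPM in AB1 IPL against 21.1 to 56.9 CPM in AB1 SC. That of 5 skeletal muscle genes was 94.7 to 3781 CPM against 49.6 to 401 CPM. The part of these tissues in the counts of Prg2, Epx and Ear6 was not tested.

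**Figure D3:**
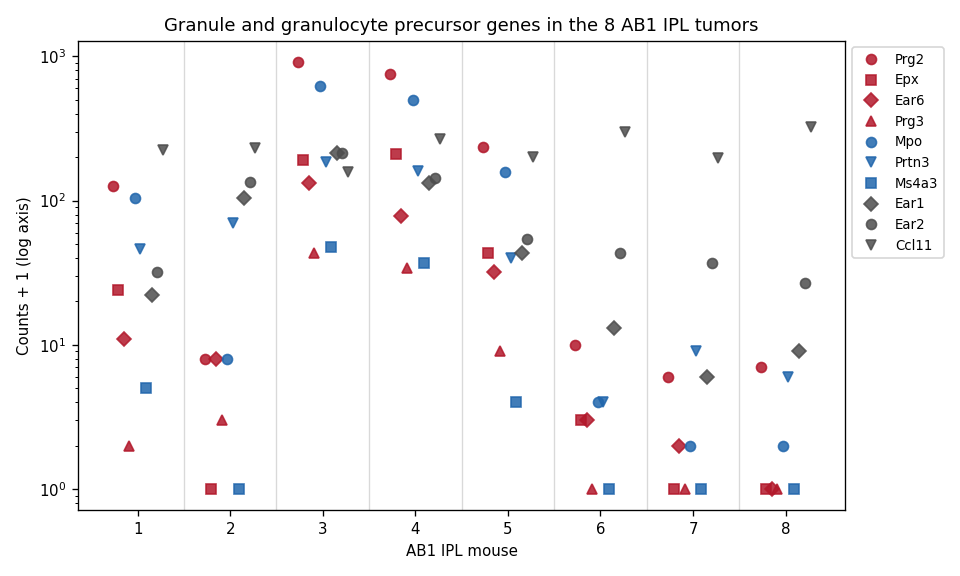
Counts plus 1 on a log axis in each of the 8 AB1 IPL tumors, for granule genes (red), granulocyte precursor genes (blue) and 3 further members (grey). Mice 1, 3, 4 and 5 are high for Prg2, Epx and Mpo, and Ccl11 stays between 158 and 321 counts in all 8.

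The site differences of the 6 members other than Ear rows were tested with edgeR's quasi-likelihood test, with Benjamini-Hochberg adjustment over all genes tested. In AB1, 4 of these 6 passed the filter on low counts and all 4 were lower in IPL tumors. In that comparison 23% of 14645 genes were called and 10.7% were called lower in IPL, but the filter had a part in this tally. It asks for about 10 counts in 8 mice, which Siglecf and Ccl24 reached in all 8 AB1 SC mice but in 5 AB1 IPL mice each, while Prg2 and Epx, high in 4 IPL mice, did not pass. The count of members lower is therefore a description, and nothing is read from it. In AE17, 2 of the 6 passed the filter and both were lower in IPL, where 5.73% of 14668 genes were called and 3.13% were called lower. The filter had a part here too, since Ccr3 had 11 to 23 counts in 7 of 8 SC mice and 3 to 10 in IPL mice, and without a filter it was not called (edgeR adjusted p = 0.0654). Epx and Prg2 passed the filter in neither model. Without a filter on low counts, Prg2 was higher in AB1 IPL than in AB1 SC by 4.91 on the log2 scale (edgeR adjusted p = 0.0133) and Epx by 6.42 (edgeR adjusted p = 0.0170), both resting on the 4 mice named above. Within lane 3 alone, with 2 SC mice, neither was called, at 4.67 for Prg2 (edgeR adjusted p = 0.489) and 8.83 for Epx (edgeR adjusted p = 0.471).

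Ccl11, eotaxin-1, was at 8.03 to 18 CPM with a median of 11.7 in AB1 IPL mice and at 19.7 to 76.5 CPM with a median of 39.5 in AB1 SC mice. Every AB1 IPL mouse was below every AB1 SC mouse. The log2 difference was -1.72 ± 0.26 (SE; edgeR adjusted p = 0.000174). Within lane 3, which held 8 IPL and 2 SC mice, it was -1.66 (edgeR adjusted p = 0.0187), and with lane as a covariate it was -1.61 (edgeR adjusted p = 0.0292). In AE17 Ccl11 was at 0.698 to 7.39 CPM in IPL mice and at 3.59 to 19.1 CPM in SC mice, with 4 of 8 IPL mice below every SC mouse. The log2 difference there was -1.81 ± 0.43 (SE; edgeR adjusted p = 0.0255). The direction held within lane 1, at -1.80 with 3 IPL mice, but the call was lost (edgeR adjusted p = 0.237), and with lane as a covariate the adjusted p was 0.225. The call also went without AE17 IPL mouse 4 (edgeR adjusted p = 0.0528) and without a filter on low counts (edgeR adjusted p = 0.0542).

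Ccl24, eotaxin-2, is made mainly by myeloid cells and acts on the same receptor. In AB1 it was at 0.163 to 4.69 CPM with a median of 0.723 in IPL mice and at 1.34 to 25.6 CPM with a median of 4.47 in SC mice. Apart from IPL mouse 2, with 87 counts, all IPL mice were below every SC mouse. The log2 difference was -2.60 ± 0.69 (SE; edgeR adjusted p = 0.0107). Ccl24 passed the filter through the SC mice, and without a filter the difference was -2.59 (edgeR adjusted p = 0.03). It was -1.69 within lane 3 (edgeR adjusted p = 0.477), -1.64 with lane as a covariate (edgeR adjusted p = 0.428) and -2.02 without the 4 AB1 IPL mice with over 50 Mpo counts (edgeR adjusted p = 0.161). Without SC mouse 6 it was -1.83 (edgeR adjusted p = 0.0287). With each mouse left out it ran from -3.46 to -1.83 and stayed called in 16 of 16 fits. In AE17 Ccl24 was below the filter, with a median of 3 counts in IPL mice and 4 in SC mice, so that a difference was not detectable at this depth. AB1 IPL mouse 2 also differed from its group by 590 counts of the mesothelial gene Upk3b, against 0 to 10 in the other 7. The part of mesothelial tissue in its Ccl24 was not tested.

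The receptors are given with their counts, since Ccr3 in AE17 and Siglecf in AB1 passed the filter through the SC mice, in which they were high. Ccr3, the eotaxin receptor, had a median of 1.51 CPM in AB1 IPL and 3.18 CPM in AB1 SC, and the groups overlapped. The log2 difference was -1.01 ± 0.32 (SE; edgeR adjusted p = 0.0308) in AB1 and -1.09 ± 0.29 (SE; edgeR adjusted p = 0.0394) in AE17, where the medians were 0.437 and 0.763 CPM. Both calls were fragile. With 1 mouse left out, Ccr3 stayed called in 11 of 16 fits in AB1 and in 5 of 16 in AE17, with a highest adjusted p of 0.0748 without AB1 SC mouse 5 and of 0.0765 without AE17 SC mouse 2. Within 1 lane the log2 differences were -0.89 (edgeR adjusted p = 0.514) in AB1 and -1.09 (edgeR adjusted p = 0.312) in AE17. Siglecf, an inhibitory sialic acid receptor, was at 0.109 to 1.02 CPM in AB1 IPL mice and at 1.05 to 4.75 CPM in AB1 SC mice, with no overlap. Its log2 difference was -2.02 ± 0.41 (SE; edgeR adjusted p = 0.00167), and -2.0 without a filter (edgeR adjusted p = 0.00231). Within lane 3 it was -1.94 (edgeR adjusted p = 0.139), and with lane as a covariate -1.88 (edgeR adjusted p = 0.101). In AE17 Siglecf fell under the filter, with 5 to 13 counts in IPL mice and 7 to 21 in SC mice. In the 4 fits that held it there, the log2 difference was -0.87 to -0.78, with an adjusted p of 0.0954 by DESeq2 and of 0.136 to 0.329 by edgeR.

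The difference of the 2 site differences was tested in 1 fit of all 32 mice, in which 20.5% of 15681 genes were called. Of the 5 non-Ear members that passed the filter, 0 were called by edgeR and 0 by DESeq2, and 1 had an unadjusted p under 0.05. That 1 was Siglecf, with a difference, AB1 minus AE17, of -1.23 on the log2 scale ± 0.51 (SE; edgeR adjusted p = 0.0881). For Ccl11 the difference was 0.11 ± 0.49 (SE) and for Ccr3 0.10 ± 0.42 (SE). These intervals are wide and do not show that the models were alike.

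**Figure D4:**
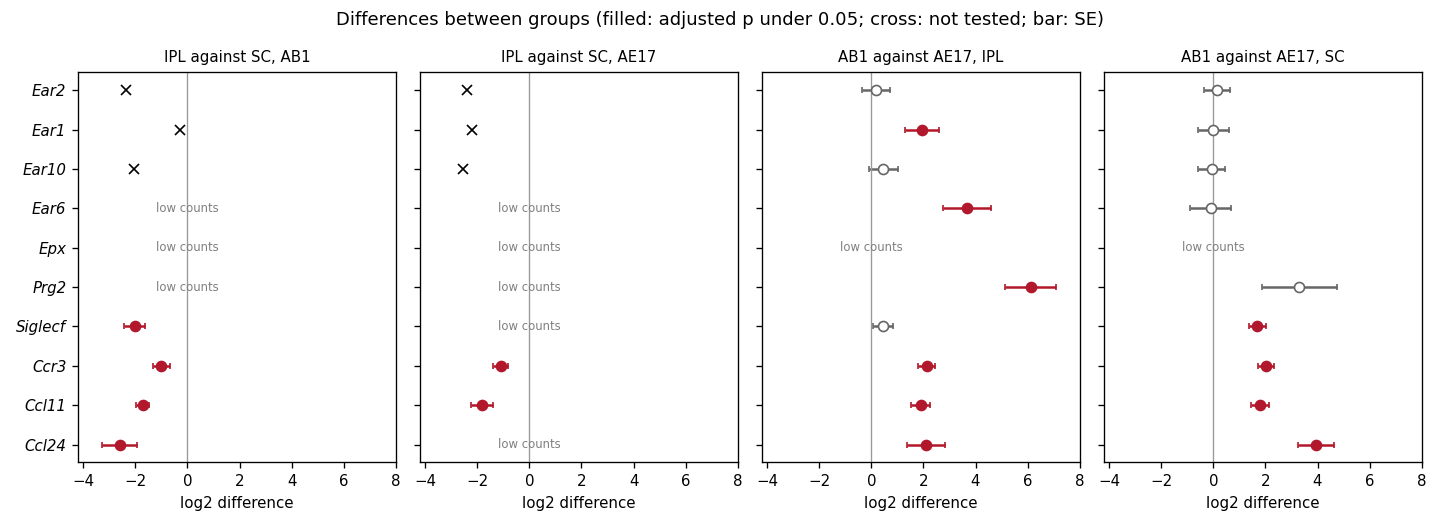
Log2 difference of each gene in 4 comparisons, with the SE as a bar; filled red points had an adjusted p under 0.05, open points did not, and crosses are Ear rows given with no test. Ccl11 and Ccr3 had lower levels at the IPL site in AB1 and in AE17, and the Ear rows lay near 0 between models in SC tumors.

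Differences between the 2 models were not used in the choice of the genes and were tested for all 10. Cell line, strain, cell number and lane cannot be told apart in them, since no lane held both models at the same site. With lane as a covariate, lane effects came only from AB1 SC and AE17 IPL, the groups spread over several lanes. Among IPL tumors 9 members passed the filter and 6 were called, all higher in AB1, where 63.4% of 15681 genes were called and 31.6% were called higher in AB1, so that the share of members called was near that of all genes. Among SC tumors 9 passed and 4 were called, all higher in AB1, against 58.3% called and 28.6% called higher over the same genes. A share of 4 of 9 was below the share of all genes called. Prg2, Siglecf and Ccl24 passed this filter mainly through AB1 mice, so both tallies are descriptions.

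The Ear rows did not differ detectably between the models in SC tumors. The log2 difference, AB1 minus AE17, was 0.14 ± 0.50 (SE; edgeR adjusted p = 0.833) for Ear2, 0.00 ± 0.60 for Ear1, -0.07 ± 0.51 for Ear10 and -0.10 ± 0.79 for Ear6. In IPL tumors it was 0.18 ± 0.53 (SE; edgeR adjusted p = 0.787) for Ear2 and 0.47 ± 0.57 (SE; edgeR adjusted p = 0.487) for Ear10. Ear1 was higher in AB1 IPL by 1.94 ± 0.66 (SE; edgeR adjusted p = 0.0116) and Ear6 by 3.67 ± 0.91 (SE; edgeR adjusted p = 0.000846). Both calls were lost without the 4 AB1 IPL mice with over 50 Mpo counts, at 0.89 (edgeR adjusted p = 0.316) and 0.04 (edgeR adjusted p = 0.979). The Ear1 call was also lost without AB1 IPL mouse 3 alone (edgeR adjusted p = 0.0545). With lane as a covariate both differences were larger, at 2.4497 for Ear1 and 4.3995 for Ear6. Neither call held in that fit (edgeR adjusted p = 0.177 for Ear1 and 0.0694 for Ear6).

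Prg2 was higher in AB1 than in AE17 in IPL tumors by 6.11 ± 0.99 (SE; edgeR adjusted p = 2.93e-06). It passed the filter mainly through the AB1 mice in which it was high, and without a filter the difference was 6.15 (edgeR adjusted p = 1.19e-05). Without the same 4 mice this was 0.90 (edgeR adjusted p = 0.240). In SC tumors all 8 AB1 mice had more than the AE17 median and 7 of 8 more than every AE17 mouse, at 2 to 13 counts against 0 to 2, and the log2 difference of 3.30 ± 1.45 did not pass the test (SE; edgeR adjusted p = 0.0508). DESeq2 called it (adjusted p = 0.00531). The AE17 SC levels were at or under the floor of 3 counts, and in AE17 IPL 2 of 8 mice were above it, at up to 12 counts. These sizes are therefore loosely set.

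Ccr3 and Ccl11 were higher in AB1 at both sites, with every AB1 mouse above every AE17 mouse of the same site. For Ccr3 the log2 difference was 2.12 ± 0.34 in IPL tumors (SE; edgeR adjusted p = 2.58e-06) and 2.02 ± 0.31 in SC tumors (SE; edgeR adjusted p = 1.63e-06). For Ccl11 it was 1.89 ± 0.37 in IPL tumors (SE; edgeR adjusted p = 4.28e-05) and 1.78 ± 0.35 in SC tumors (SE; edgeR adjusted p = 5.70e-05). All 4 of these stayed called with lane as a covariate, with adjusted p between 0.00743 and 0.0366. No lane held both models at the same site, so that fit does not separate lane from model directly. Ccl24 was higher in AB1 by 2.10 ± 0.74 in IPL tumors (SE; edgeR adjusted p = 0.0141). That call was lost without AB1 IPL mouse 2 (edgeR adjusted p = 0.129) and with lane as a covariate, at 3.35 (edgeR adjusted p = 0.0621). In SC tumors Ccl24 was higher by 3.94 ± 0.68 (SE; edgeR adjusted p = 9.25e-06), and by 3.19 to 4.64 with each mouse left out. It passed this filter through the AB1 mice, and without a filter the adjusted p of edgeR was 0.0237 in IPL and 3.86e-05 in SC tumors. Siglecf was higher in AB1 by 1.69 ± 0.34 in SC tumors (SE; edgeR adjusted p = 7.25e-05), and by 1.59 with lane as a covariate (edgeR adjusted p = 0.0855). In IPL tumors the Siglecf difference was 0.46 ± 0.38 (SE; edgeR adjusted p = 0.297). Siglecf also passed this filter through the AB1 mice, with 18 to 83 counts in AB1 SC and 7 to 21 in AE17 SC.

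Per kilobase of exon, the order of the members changed between groups. In AB1 SC tumors the highest median was Ccl11 at 36.5 CPM per kb, before Ear2 at 21.6, Ear10 at 6.05, Ear1 at 3.47 and Ccl24 at 3.46. In AE17 SC tumors Ear2 came first at 24.1 CPM per kb, then Ccl11 at 11, Ear10 at 7.42 and Ear1 at 5.09. In AB1 IPL tumors Ccl11 was at 10.8 CPM per kb, Prg2 at 4.02, Ear2 at 3.77 and Ear1 at 2.28, and Prg2 owed its place to 4 mice. In AE17 IPL tumors Ear2 at 5.17 and Ccl11 at 3.28 CPM per kb led. The mice of neighbouring genes in these orders overlapped in level, with 2 exceptions: Ear1 was above Siglecf in every AE17 IPL mouse, and Ear6 was above Epx in every AB1 SC mouse.

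Within groups the members moved together to different degrees. Over pairs with a mean of at least 10 counts in the group, log2 CPM was correlated across the 8 mice and tested by an exact permutation test, two-sided, adjusted over 100 pairs, with 2.48e-05 as the smallest p that 8 mice allow. Of these, 28 pairs were called, all positive, 7 in AB1 IPL, 14 in AB1 SC, 0 in AE17 IPL and 7 in AE17 SC. The smallest r called was 0.832. Of all pairs of genes with that minimum count, 4.03%, 1.63%, 1.39% and 3.09% reached this r in those 4 groups, against 7 of 45, 14 of 28, 0 of 6 and 8 of 21 pairs of members. By Spearman's rho 18 were called, 8 without SC mouse 6 of both models and 7 with no minimum count. Of the 28, 15 joined 2 Ear rows. In 9 of these 15 both rows were among Ear1, Ear2 and Ear10, which can share many reads, and 6 involved Ear6, which shares fewer. Ear2 and Ear10 had r = 0.995 and rho = 0.905 in AB1 SC (exact permutation p = 0.000198 and 0.00456) and r = 0.989 and rho = 0.952 in AE17 SC (exact permutation p = 0.000322 and 0.00114).

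Of the other 13 pairs, 8 joined an Ear row with an eotaxin, 6 of them in AB1 SC and 2 in AE17 SC. In AB1 SC mice Ear2 and Ccl11 had r = 0.933 and rho = 0.976 (exact permutation p = 0.000322 and 0.000397, adjusted 0.00347 and 0.00992), and r = 0.931 without the 2 mice farthest from the Ear2 median. Among the 6 of these mice in lane 2, r was 0.945 (exact permutation p = 0.00139), and without mouse 6, r was 0.958 (exact permutation p = 0.00258). In AE17 SC mice r was 0.837 and rho 0.690 (exact permutation p = 0.00313 and 0.0694, adjusted 0.0164 and 0.173), and r fell to 0.634 without the 2 farthest mice, so that relation rested in part on them. Without mouse 6, r was 0.851 and rho 0.536 (exact permutation p = 0.0163 and 0.236). The AE17 SC mice were all in lane 1. In IPL mice the pair gave r = -0.269 in AB1 and -0.091 in AE17 (exact permutation p = 0.507 and 0.825). The difference of these correlations between sites was not tested. Ccl11 and Ccl24 had r = 0.943 and rho = 0.905 in AB1 SC mice (exact permutation p = 0.000570 and 0.00456, adjusted 0.00477 and 0.0351). Siglecf and Ccr3 had r = 0.949 and rho = 0.905 in AB1 SC mice (exact permutation p = 0.000347 and 0.00456, adjusted 0.00347 and 0.0351), and r = 0.959 both without the 2 farthest and within lane 2. In AE17 SC mice that pair had r = 0.558 (exact permutation p = 0.149). No r is given for pairs among Prg2, Epx and Ear6 in AB1 IPL, since Prg2 and Epx fell into 4 high and 4 low mice. Ear6 had no clear step, with 10 counts in mouse 1 and 7 in mouse 2. The 3 pairs among these genes are part of the 7 calls in AB1 IPL.

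The genes most like each member were sought after the 4 group means had been removed, over 32 mice and 13979 genes that averaged 1 CPM or more, by Pearson's r and as a description. Samples share depth and tissue make-up, and no p is given. Ear2 was most like Ear10 (r = 0.961), Ear1 (r = 0.930) and Tns4 (r = 0.785), and the third gene for Ear1 and for Ear10 was Nfe2, a factor of the erythroid and megakaryocyte lineages (r = 0.843 and 0.761). Prg2 was high only in the 4 AB1 IPL mice named above, so its r values rest largely on them. It was most like Ngp, Camp and Ltf, all granule genes of maturing neutrophils (r = 0.935, 0.930 and 0.907). The next were Mpo (r = 0.892), the cartilage collagen gene Col11a2 (r = 0.881) and the osteocalcin genes Bglap and Bglap2 of bone (r = 0.874 and 0.872), and the part of bone or marrow tissue in Prg2 was not tested. Siglecf was most like Clec10a, a macrophage and dendritic cell lectin, at r = 0.696, and then B3galt4 and Mark1. Ccl11 was most like Dpp7, Lgi4 and Gstm2 (r = 0.794 to 0.809), and Ccl24 most like Stac2, Egr2 and Gm8113 (r = 0.731 to 0.787). Ccr3 was most like Klrb1c, a natural killer cell receptor, at r = 0.707, and then Ddx3y and Uty, which are Y-linked genes (r = 0.702 and 0.698) in tumors taken from female mice.

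Lists of other genes of the pathway and of cells that could hold these transcripts are described by their counts and medians, beside a median log2 difference over all genes of -0.0023 in AB1 and 0.0043 in AE17. Of 7 other eosinophil genes listed, 5 had rows and 2 were tested in each model, and 0 were called in AB1. Alox15, a lipoxygenase of eosinophils and macrophages, was higher in AE17 IPL by 2.08 ± 0.58 (SE; edgeR adjusted p = 0.0470). That call was lost with lane as a covariate, within 1 lane, without a filter and without SC mouse 6. Without the 4 AB1 IPL mice with over 50 Mpo counts, 1 of 2 was called lower in AB1, and the list median went from -0.49 to -1.61. Il5ra, the interleukin-5 receptor, had medians of 0.252 and 0.389 CPM in AB1 IPL and SC and of 1.35 and 2.37 CPM in AE17 IPL and SC, where the tested log2 difference was -0.08 ± 0.42 (SE; edgeR adjusted p = 0.928). Of 15 type 2 cytokine and receptor genes, 9 were tested in AB1 and 7 were lower in IPL, led by the granulocyte growth factor Csf2 (log2 difference -2.30), the interleukin-33 receptor Il1rl1 (-1.36) and Il13ra2 (-2.45). Csf2 had 19 to 39 counts in SC mice and 2 to 8 in IPL mice, so that it passed the filter through the SC mice. Without a filter 8 of 12 were lower in AB1 and 0 of 11 were called in AE17. In AE17, 1 of 8 was lower, again Il1rl1, by -0.71. The list's median was -0.90 in AB1 and -0.017 in AE17, and with lane as a covariate 2 of 9 and 0 of 8 were called, and within 1 lane 1 of 10 and 0 of 9. Of the other chemokines known to draw eosinophils, Ccl5, Ccl7 and Ccl3 were all lower in AB1 IPL, at -2.02, -0.91 and -1.21, with 1 of 3 called under lane as a covariate, within 1 lane or without the 4 Mpo mice, and 0 of 3 were called in AE17.

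Macrophage genes of the interleukin-4 response were lower in part. In AB1 IPL tumors Mgl2 (log2 difference -2.51), Clec10a (-1.93) and Ccl17 (-2.20) were lower, 3 of 4 tested, and in AE17 Ccl17 (-2.27) and Clec10a (-0.84) were, 2 of 4 tested. With lane as a covariate 2 of 4 and 0 of 4 were called. Of the general macrophage genes 3 of 7 were lower in AB1, at a list median of -0.33, and 0 of 7 were called in AE17, at a median of 0.23. With lane as a covariate, within 1 lane, and without the 4 Mpo mice 0 of 7 were called in AB1. Among alveolar macrophage genes 3 of 7 were lower in AB1 IPL, Itgax by -2.15, Plet1 by -1.67 and Car4 by -3.20, while Fabp4 was higher by 1.45, and 0 of 7 were called in AE17. With lane as a covariate 3 of 7 were lower and 0 higher in AB1. Of the nonclassical monocyte genes, 1 of 6 was lower in AB1, Fcgr4 by -0.96, and 0 of 6 in AE17. That call was lost with lane as a covariate and within 1 lane. Cd200r3, the only basophil gene with a row, was lower in IPL tumors by -2.25 in AB1 and -1.47 in AE17. Mast cell genes were lower in 3 of 3 in AB1 and 2 of 3 in AE17, with Kit at -0.96 and -0.94, Ms4a2 at -2.16 and -1.51, and Cpa3 at -1.61 in AB1. With lane as a covariate Cd200r3 stayed called in AB1 and 2 of 3 mast cell genes did, and 0 of these were called in AE17. Within 1 lane Cd200r3 was not called in AB1, at -2.27, and 1 of 3 mast cell genes was.

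Lists of other cells and tissues had more calls in AB1 than in AE17, as did all genes, of which 23% and 5.73% were called. The neutrophil genes S100a8 and S100a9 were higher in AB1 IPL by 3.81 and 3.97 and Csf3r was lower by -0.80, of 4 tested, and 0 of 5 were called in AE17. Without the 4 AB1 IPL mice with over 50 Mpo counts, 0 of these 4 were called higher. Skeletal muscle genes were higher in 4 of 5 in AB1 IPL, with Ckm at 4.26, and erythroid genes in 3 of 3, with Hbb-bs at 4.91, while in AE17 0 of 5 and 1 of 4 were called. Without the 4 Mpo mice 1 of 5 skeletal muscle genes was called in AB1, and the erythroid median went from 4.53 to 2.12 with 3 of 3 called. The call in AE17 was Alas2, at 1.48, and 4 of 4 erythroid genes were called higher there without SC mouse 6. Fibroblast genes Col1a1 and Fap were higher in AB1 IPL, by 1.12 and 1.01, of 3 tested, and 0 of 3 were called in AE17. With lane as a covariate, and within 1 lane, 0 of the neutrophil, skeletal muscle, erythroid and fibroblast genes were called in AB1. Their list medians with lane as a covariate were 1.85, 2.81, 4.89 and 0.96, against 1.60, 3.56, 4.53 and 1.01 in the main fit. Lung epithelium and epidermis had 1 tested gene each in each model and mesothelium 1 in AB1 and 0 in AE17, and 0 of them were called. In AE17 the 3 mesothelial genes passed the filter within 1 lane and without SC mouse 6, at medians of 5.73 and 4.91, through the IPL mice in which they were high, so nothing is read from those fits. Without a filter 3 of 3 were called higher in IPL in AE17 and 2 of 3 in AB1. In AB1 IPL mice Upk3b ran up to 590 counts at a median of 2.5, and Lrrn4 up to 449 at a median of 2. The summed level of 5 lung epithelial genes was 1.26 to 11.8 CPM over all mice. For these lists, which differences in cell make-up stand behind the members was not tested.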

How the data were processed

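PolyA RNA of 32 tumors was sequenced as 50-base single-end reads. The deposited values are raw counts per gene, made by the authors with HISAT2 2.0.4 and SummerizeOverlaps. The labels also name bcl2fastq 1.8.4. The methods name the build mm11, whereas the gene IDs carry GENCODE versions, of which 36719 of 39676 matched M21 (GRCm38), used here for coordinates. Strand and multi-mapping settings are not given in the sources used here, so overlapping and near-identical genes are uncertain.

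Counts were tested with edgeR 4.0.16 in R 4.3.3 (filterByExpr, TMM, robust quasi-likelihood fit, two-sided, Benjamini-Hochberg over all genes tested, threshold 0.05), by site within each model on 16 mice and between models on all 32. In simulated data of the AB1 site comparison, 96 of 100 genes changed 4-fold and 48 of 100 changed 2-fold were recovered. Recovery at the spread of the members was not tested. Ear2 in AB1 SC, for example, had a mean of 22.7 CPM and an SD of 27.6 CPM. DESeq2 1.42.0 and other filters, scalings, covariates and omissions were alternatives. Correlations used log2 CPM with a prior count of 2 and exact permutations (Python 3.11.15).

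The members and gene lists were chosen with earlier results of these data known. Named genes are the 10 members, up to 3 tested genes of each list with the smallest adjusted p by site, and the 3 genes most like each member at a mean of at least 1 CPM; single genes of the added lists, Prg3, Il5ra, Upk3b, Fabp4, Col11a2, Bglap and Bglap2 were named after their values were seen. Where nothing states separate handling, each group difference was tested against the spread between mice. These differences can also carry sequencing lane, which was not balanced between groups. Same-numbered mice were not treated as pairs. With 15432258 to 20649645 counts a library, 3 counts, the limit a count of 0 allows, come to 0.145 to 0.194 CPM. No columns of the count table were left out.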

Additional observations from a re-analysis of the deposited data

Results flagged for a closer look

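Of 40 groups of 8 mice, 1 for each gene and group, 12 held a mouse whose distance to the next, over the whole range of the group, passed Dixon's 95% critical value. Chance gives about 1 in 20 for normally distributed values, which these skewed levels are not, so the number of flags cannot be read against that rate. For Epx in the SC groups, with 7 mice at 0, the ratio is 1.0 by construction. In AB1 SC, mouse 6 was the highest for Ear2 (ratio 0.846, 89.8 CPM against 18.9 for the next), Ear1 (0.820), Ear10 (0.829), Ear6 (0.909), Ccl24 (0.761) and Epx (1.0, with 4 counts against 0 in the other 7). In AE17 SC, mouse 6 was the highest for Ear2 (ratio 0.690, 62.3 CPM against 22.2 for the next), Ear1 (0.626), Ear10 (0.664) and Ccl24 (0.681, with 27 counts). AE17 SC mouse 3 was the highest for Epx (ratio 1.0) with 1 count. In AB1 IPL, mouse 2 was the highest for Ccl24 (ratio 0.796, 4.69 CPM against 1.09 for the next). The Ear rows share reads, so that their flags are not independent.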

How the results depend on the processing

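Of the 6 non-Ear members, 4 were called by site in AB1. This count was 6 by DESeq2 and without a filter and 5 with all 32 mice in 1 fit, where Prg2, and in the first pair also Epx, were added as higher in IPL. It was 2 with at least 10 counts in every mouse, 1 with lane as a covariate and 1 within 1 lane. In AE17 it was 2, and became 0 without a filter, with lane as a covariate and within 1 lane, and 1 with at least 10 counts, with all 32 mice in 1 fit, without SC mouse 6 (added after seeing the data) and with the replicate block, where Ccr3 had an adjusted p of 0.0731. With each mouse left out it ranged from 0 to 2. The 6 calls between models in IPL tumors became 1 with at least 10 counts and 3 with lane as a covariate, with only the 16 mice of that site, or without the 4 Mpo mice (added after seeing the data). The 4 in SC tumors became 1 with at least 10 counts, gained Prg2 by DESeq2 (adjusted p = 0.00531), with total counts (edgeR adjusted p = 0.0459) and without the 4 Mpo mice (0.000191), and lost Siglecf with lane as a covariate (0.0855). The 0 calls for the difference of site differences ranged from 0 to 1 with each mouse left out, the 1 being Ccl24 without AB1 IPL mouse 2 (edgeR adjusted p = 0.0418). Correlation calls were 28, and 19 to 28 under 4 alternatives, against 18 and 7 to 18 by Spearman's rho. The cause of these moves was not tested, other than that stricter filters and within-lane fits hold fewer genes or mice.

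Among the tested differences, directions turned only where the main difference was not called. Between models in IPL tumors, Ear2 was -0.34 without the 4 Mpo mice and -0.16 to 0.34 with each mouse left out. In SC tumors Ear1 was -0.0052 by DESeq2, -0.0046 with DESeq2 size factors, -0.10 with the replicate block, -0.0719 with lane as a covariate, -0.0131 with 16 mice, -0.0044 without the 4 Mpo mice, -0.47 without SC mouse 6 and -0.88 to 0.41 with each mouse left out. There Ear2 was -0.27 with lane as a covariate, -0.17 without SC mouse 6 and -0.66 to 0.62 with each mouse left out, Ear10 -0.87 to 0.39 and Ear6 -1.25 to 0.24. For the difference of site differences, without the 4 Mpo mice Prg2 was -2.39 and Ccr3 -0.16, and with each mouse left out Ccl11 was -0.0426 to 0.39 and Ccr3 -0.0557 to 0.28. Replicate numbers were not read as pairs. Same-numbered deviations correlated over 0.1 in 0 of 8 pairs in AB1 and 5 of 8 in AE17. Mice of different numbers were not compared, so this does not settle whether the numbers pair mice in AE17. The replicate block lost Ccr3 in AE17, gained Prg2 between models in SC tumors (edgeR adjusted p = 0.0182), and moved no other call.

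The depth limits Epx outside AB1 IPL, Prg2 in AE17 and Ear6 in AE17 IPL, where most mice had at most 3 counts, and Ccl24 in AE17, with medians of 3 and 4 counts.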
